A study of Mus musculus with 25 samples.

Results

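Leptin and gut-hormone sensing was examined through 8 genes, chosen by symbol out of the 24421 genes listed. They are the leptin receptor gene Lepr, its kinase and transcription factor genes Jak2 and Stat3, the feedback genes Socs3 and Ptpn1, and the receptor genes Ghsr (ghrelin), Glp1r (glucagon-like peptide 1) and Gipr (glucose-dependent insulinotropic polypeptide). The data are stranded mRNA sequencing of hypothalamus from 25 samples of wild-type C57BL/6J mice aged 3 months. Dams ate a hypercaloric diet (HCD, with 52% fat and much sucrose) or regular chow (RD) starting 1 month ahead of mating and through pregnancy and nursing, and the young went onto one of these diets at weaning. Group names give the dam's diet and then the offspring's: HCD-HCD, RD-HCD, HCD-RD and RD-RD, in males and females. RD-RD males have 4 samples and the 7 remaining groups have 3 samples. Offspring of HCD dams were compared with offspring of RD dams within a sex and a weaning diet, which makes 4 comparisons that share no group. Values given in fours follow 1 order throughout: males, then females, weaned onto HCD, followed by males, then females, weaned onto RD.

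Leptin, secreted by fat tissue, binds the long form of its receptor on neurons of the arcuate and neighbouring hypothalamic nuclei. The receptor has no kinase of its own and works through JAK2, which phosphorylates the receptor and STAT3. STAT3 then enters the nucleus and raises transcription of, among others, Socs3. The SOCS3 protein and the phosphatase PTP1B, the product of Ptpn1, both damp the signal and are known for their part in leptin resistance. Ghrelin from the stomach acts on the receptor encoded by Ghsr and promotes feeding, while the incretin hormones act on the receptors encoded by Glp1r and Gipr, which raise cAMP.

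The Socs3 promoter is shown because STAT3 is known to act on this gene. Promoters of 7 of the 8 genes, in 8 windows of 250 bases upstream of a RefSeq start (GRCm38.p6), were searched for the STAT motif TTCNNNGAA. The motif reads the same on both strands, and no other motif was searched. Socs3 was the 1 gene with a match, which spans bases 154 to 146 before its start and is in capitals. The stretch printed lies on the minus strand at chr11:117969467-117969566. GENCODE places Socs3 at chr11:117966079-117970047, so the stretch lies inside the gene span annotated there.

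Socs3: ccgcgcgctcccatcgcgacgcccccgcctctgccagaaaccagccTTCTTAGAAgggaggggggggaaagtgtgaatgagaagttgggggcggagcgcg

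Of all 32851 windows of this length, 7.02% held the motif. The match describes letters, and no binding was measured.

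Library columns could not be tied to samples, so each level is the authors' mean normalized count over both groups of a comparison, and the spread between samples enters only through the standard error (SE) of a fold change. Positive fold changes stand for higher levels after a maternal HCD. Among HCD-weaned offspring the labels name the RD-dam group as control; among RD-weaned offspring only the order in which the groups are named gives the reading, and were it wrong, each sign in both RD-weaned comparisons would turn. Sex-specific genes fitted the labels: the mean of Xist was at most 3.33 in males and that of Ddx3y at most 0.194 in females. Markers of neighbouring regions were abundant. The summed level of 8 arcuate markers was 78.4 to 146 per 1000000 normalized counts, against 745 to 1146 for 8 thalamus markers and 4078 to 5271 for 10 choroid plexus markers. Nr5a1, which marks the ventromedial nucleus, had mean normalized counts of 11.6, 0.735, 0.747 and 0.739.

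The 8 genes fell into 2 ranges of expression. Scaled for exon length and per 1000000, the level of Ptpn1 was 21.3 to 27.8 over the comparisons, that of Jak2 17.9 to 22.6 and that of Stat3 14.6 to 19.0. On the same length-scaled scale Socs3 stood at 1.53 to 2.83, Lepr at 1.06 to 1.54, Gipr at 0.809 to 1.33, Ghsr at 0.268 to 0.866 and Glp1r at 0.229 to 0.487. The order Ptpn1, Jak2, Stat3, Socs3 was the same in all 4 comparisons. Lepr, Gipr, Ghsr and Glp1r followed in that order in 3 of them, while in HCD-weaned females Gipr stood above Lepr and Glp1r above Ghsr. Whether neighbours in this order differ beyond their spread over samples was not tested, since only means are used. The comparisons were normalized separately, so levels from different ones are only set side by side.

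**Figure D1:**
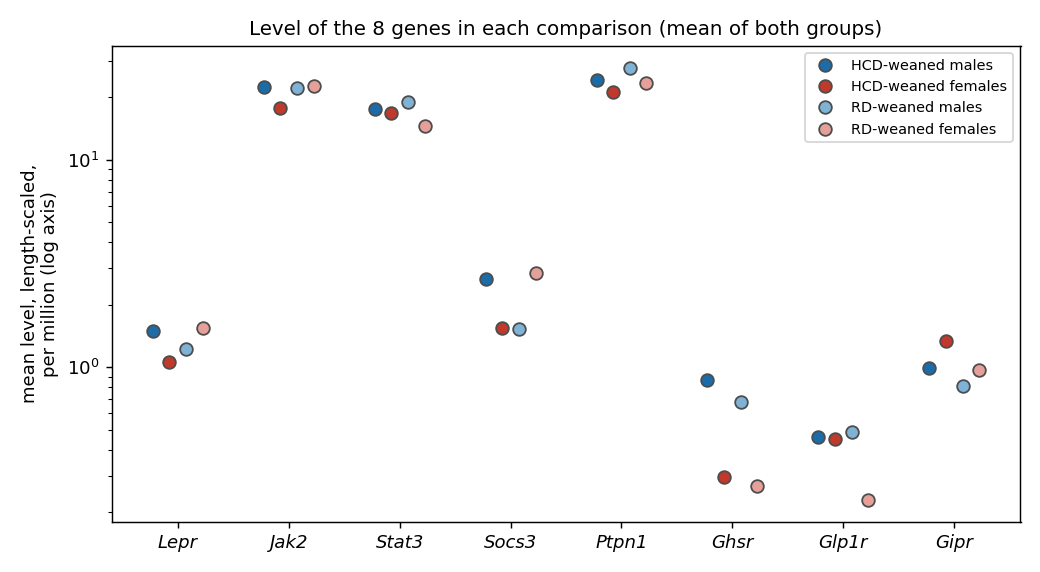
Mean level of each gene in each comparison, scaled for exon length and per 1000000, on a log axis; a point is the mean over the libraries of both groups and has no error bar. Ptpn1, Jak2 and Stat3 sit between 14.6 and 27.8, and the other 5 genes between 0.229 and 2.83.

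The receptors rest on few reads. Lepr had mean normalized counts of 85.9, 54.4, 39.4 and 80.4. Ghsr had 31.3, 9.51, 13.8 and 8.79, Glp1r 21.8, 19.0, 12.9 and 9.83, and Gipr 28.0, 33.8, 12.9 and 24.8 mean normalized counts. Genes with a mean under 10 have no adjusted p from the authors, which left out Ghsr in both sets of females and Glp1r in RD-weaned females. In RD-weaned males Socs3, Ghsr and Gipr have a fold change without a p-value. Such gaps were not limited to low genes. Of genes with a mean of at least 10, 1554 had no adjusted p there, Ttr (mean 77690) among them. The hypothalamic genes Pmch, Oxt and Otp and the receptor gene Calcr were among them too. Why the p is missing was not tested. The number was 342 in RD-weaned females and 0 in both HCD-weaned comparisons. An adjusted p was present for 26 of the 32 values.

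None of the 8 genes passed the test of maternal diet in any comparison. Of the 26 values with an adjusted p, 0 were under 0.05 after the authors' adjustment over all genes. Of the 29 values with a p, 1 had an unadjusted p under 0.05, that of Glp1r in HCD-weaned males. The 32 log2 fold changes ranged from -0.80 to 0.35, with 21 negative and 11 positive, or 19 and 13 with the RD-weaned signs turned. Their 95% intervals reached from -1.42 to 1.18. Because low genes appear shrunken toward 0, the intervals of the receptors set no limit on the size of a change: Ghsr, at a mean normalized count of 8.79, had an SE of 0.18, and Jak2, at 839, one of 0.26, both in RD-weaned females. In bulk tissue fewer cells of a type and less RNA per cell cannot be told apart.

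**Figure D2:**
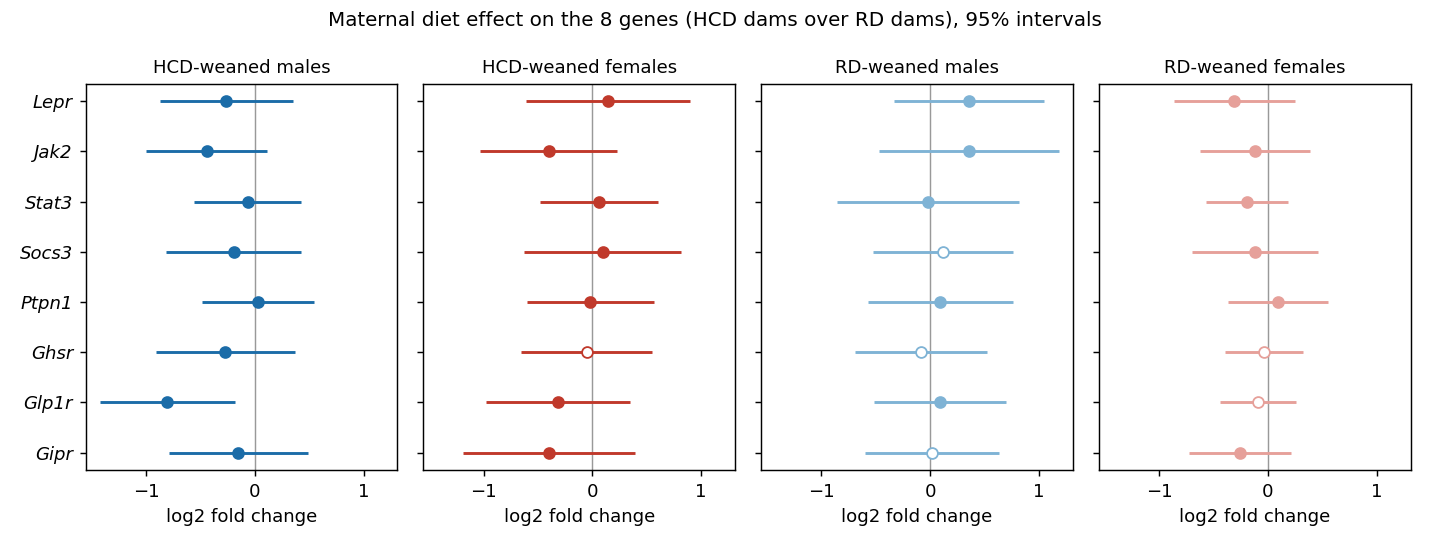
Log2 fold change of each gene, HCD dams over RD dams, in the 4 comparisons, with 95% intervals as lines; filled circles have an adjusted p from the authors and open circles do not. Of the 32 intervals, that of Glp1r in HCD-weaned males, from -1.42 to -0.18, leaves out 0.

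Lepr, the leptin receptor gene, did not pass in any of the 4 comparisons. Its log2 fold changes, per the authors' deposited tables, were -0.26 ± 0.31 (SE), 0.15 ± 0.38, 0.35 ± 0.35 and -0.31 ± 0.29, with adjusted p of 0.856, 0.966, 1.00 and 1.00. Every one of the 4 intervals spanned 0. With a trend on transcript length and GC content removed, the value in HCD-weaned males was 0.0084. Lepr lies on the plus strand at chr4:101717404-101815352 (GRCm38), where GENCODE lists 7 transcripts, 4 of them coding. Counts per gene do not separate the long form, which signals through STAT3, from short forms, which are known to be abundant in choroid plexus. In RD-weaned females 9 of 10 choroid plexus markers were positive (median 0.58), while Lepr was negative. Kl and Kcnj13 were called there, at 1.006 ± 0.228 (SE) and 0.84 ± 0.22 per the authors' deposited table, where 0.346% of all genes passed. Choroid plexus medians were 0.16, -0.35 and 0.03 in the other 3 comparisons. Of 7 tested arcuate markers in RD-weaned females, 6 were negative like Lepr and 1, Npy, was positive (median -0.48), with 0 called. Pomc, an arcuate marker without a p there, was positive as well, at 0.36 ± 0.23 (SE) per the authors' deposited table. Arcuate medians in the other 3 comparisons were -0.09, 0.03 and -0.11. The part of choroid plexus and of arcuate cells in the Lepr values was not tested.

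Jak2 encodes the kinase bound to the receptor. Per the authors' deposited tables, its log2 fold changes were -0.44 ± 0.28 (SE), -0.40 ± 0.32, 0.35 ± 0.42 and -0.11 ± 0.26, with adjusted p of 0.692, 0.691, 1.00 and 1.00. Both HCD-weaned values were negative and neither passed. Its mean normalized counts of 509 to 922 exceeded those of the receptors, yet its intervals still reached down to -1.03 (HCD-weaned females) and up to 1.18 (RD-weaned males). Jak2 lies on the plus strand at chr19:29251828-29313080.

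Stat3, the transcription factor gene, had values closer to 0. They were -0.07 ± 0.25 (SE), 0.06 ± 0.28, -0.02 ± 0.43 and -0.19 ± 0.19 per the authors' deposited tables, with adjusted p from 0.960 to 1.00. The narrowest interval, in RD-weaned females, ran from -0.57 to 0.19, and the widest, in RD-weaned males, from -0.86 to 0.82. Stat3 lies on the minus strand at chr11:100885098-100939540 and shares 72 exon bases with Stat5a on the opposite strand. The kit marks strand, but whether counting used it was not stated in any source used.

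Neither feedback gene passed. Socs3, whose promoter stretch is printed above, had log2 fold changes of -0.19 ± 0.32 (SE), 0.09 ± 0.37, 0.12 ± 0.33 (no p) and -0.12 ± 0.30 per the authors' deposited tables, at mean normalized counts of 62.6, 32.7, 20.2 and 60.6. Ptpn1, at chr2:167932057-167979385, had 0.03 ± 0.26 (SE), -0.02 ± 0.30, 0.09 ± 0.34 and 0.10 ± 0.24 per the authors' deposited tables, at mean normalized counts of 704 to 1099. No value of Ptpn1 was farther from 0 than 0.10. Its narrowest interval, in RD-weaned females, ran from -0.37 to 0.56.

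Glp1r in HCD-weaned males had the value farthest from 0 of all 32. It was -0.80 ± 0.32 (SE) per the authors' deposited table, with an adjusted p of 0.492, at a mean normalized count of 21.8. Of the 15384 genes tested there, 0.956% had a fold change at or below it. The values in the other 3 comparisons were -0.31 ± 0.34 (SE), 0.09 ± 0.31 and -0.09 ± 0.18 per the authors' deposited tables. Genes of the paraventricular nucleus, where Glp1r is known to be expressed, had negative values in HCD-weaned males. All 6 markers were below 0 (median -1.19), and 2 were called, where 0.163% of all genes passed. Oxt, the oxytocin gene, and Sim1 fell, with log2 fold changes of -2.27 ± 0.31 (SE) and -1.37 ± 0.32 per the authors' deposited table. The medians of the tested markers of that nucleus were -0.84 (5 markers), -0.22 (3 markers) and -0.38 (6 markers) in the other comparisons, with 0 called. Their summed level was 18.1 per 1000000 in RD-weaned males and 110 to 122 elsewhere. Medians of the lateral hypothalamus and ventromedial nucleus were negative in HCD-weaned males too. In the lateral hypothalamus 2 of 3 markers were negative (median -1.73) and Lhx9 was positive. The neuropeptide genes Pmch and Hcrt fell, with log2 fold changes of -1.93 ± 0.30 (SE) and -1.73 ± 0.32 per the authors' deposited table. Arcuate markers were split, with 3 positive and 4 negative of 7 tested (median -0.09) and 0 called. Among them Cartpt stood at 1.13 ± 0.32 (SE) per the authors' deposited table. All 4 ventromedial markers were below 0 (median -0.75), and Fezf1 fell (-1.55 ± 0.32, SE) per the authors' deposited table. All 8 striatum markers were below 0 as well (median -0.63), with 0 called. The part of these cells in the Glp1r value was not tested.

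Ghsr, the ghrelin receptor gene, did not pass in any comparison. Its values were -0.27 ± 0.33 (SE), -0.05 ± 0.31, -0.09 ± 0.31 and -0.04 ± 0.18 per the authors' deposited tables, and the first alone has an adjusted p, 0.856. All 4 are negative as read here, and 2 of 4 with the RD-weaned signs turned. Gipr had -0.15 ± 0.33 (SE), -0.40 ± 0.40, 0.02 ± 0.32 (no p) and -0.26 ± 0.24 per the authors' deposited tables, with adjusted p of 0.927, 0.806 and 1.00 where given. Ghsr lies at chr3:27371351-27378010, Glp1r at chr17:30901817-30940791 and Gipr at chr7:19156061-19166127 in GRCm38. Transcripts of the hormones were at or near 0: Lep and Gip had a mean of 0 in all 4 comparisons, and the mean normalized counts of Ghrl and Gcg were at most 1.86 and 2.57.

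The counts of passing genes were read against all genes. In HCD-weaned males 0 of 8 passed, where 0.163% of 15384 genes did, and 1 of 8 had an unadjusted p under 0.05, where 8.14% did. In HCD-weaned females 0 of 7 met either rule, against 1.52% and 13.3% of 15043 genes. For RD-weaned males it was 0 of 5, against 0.0851% and 4.3% of 12920 genes, and for RD-weaned females 0 of 6, against 0.346% and 6.16% of 15028 genes. With so few genes, a count of 0 or 1 lies near these backgrounds. The 8 fold changes had medians of -0.23, -0.04, 0.09 and -0.12, with 7, 5, 2 and 7 of them negative. In HCD-weaned males 5 of 8 were negative once the trend on length and GC content was removed. Among genes with an adjusted p, removal changed the negatives from 4 to 5 of 7 in HCD-weaned females and from 1 to 0 of 5 in RD-weaned males. In RD-weaned females they stayed at 5 of 6. Over all tested genes the medians were -0.01, 0.04, 0.00 and 0.01, and 51.1%, 45.6%, 49.98% and 49.1% were negative.

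**Figure D3:**
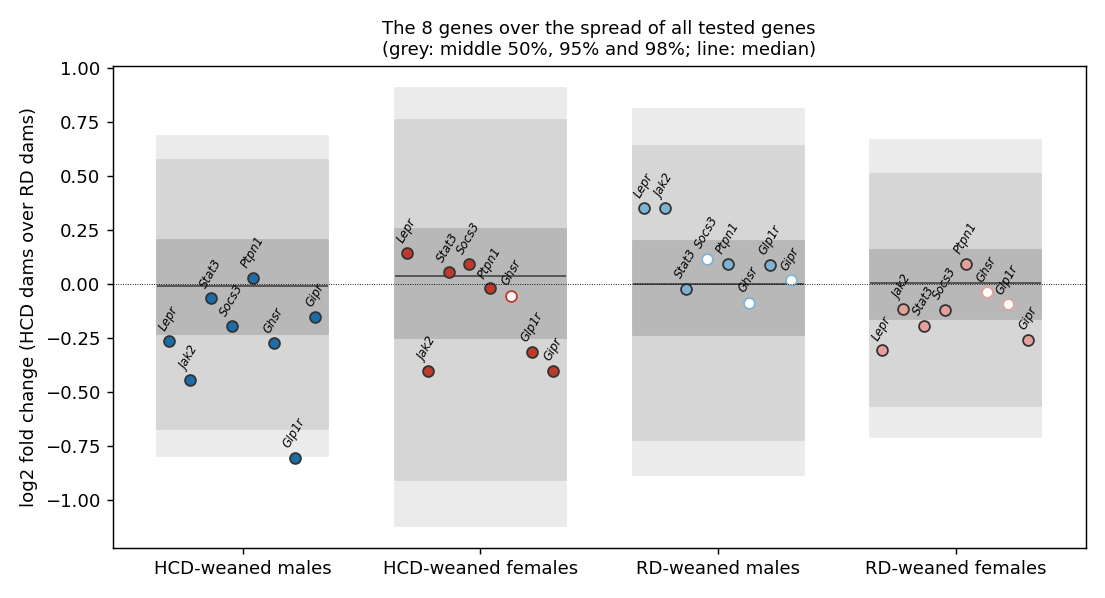
Log2 fold change of the 8 genes (circles, open where no adjusted p is given) in each comparison, over grey bands that hold the middle 50%, 95% and 98% of all tested genes. Glp1r in HCD-weaned males, at -0.80, lies just below the lowest band edge of -0.79 there.

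The sizes of called changes at these levels are given next. They depend on how many genes passed in each comparison, and low genes appear shrunken, so they set no limit of detection. In HCD-weaned males the smallest called change at mean normalized counts of 10 to 30, the range of Glp1r and Gipr, was 1.21 on the log2 scale (4 of 1302 genes called), and at 30 to 100, the range of Lepr, Ghsr and Socs3, it was 1.32 (5 of 1735 genes). In HCD-weaned females 0 of 1250 and 0 of 1807 genes in these ranges were called, and in RD-weaned males 0 of 837 and 0 of 1551. In RD-weaned females 0 of 1321 and 9 of 1806 were called, the smallest change being 1.09. At 400 to 1500, the range of Jak2, Stat3 and Ptpn1, the smallest called changes were 1.14, 0.88, 0.97 and 0.88.

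Maternal effects were next compared between sexes and between weaning diets, by the difference of 2 fold changes over its SE. None of the 8 genes passed in any of the 4 contrasts. Between HCD-weaned males and females 0 of 7 met either rule, where 0% of 14947 genes passed and 0.642% had an unadjusted p under 0.05. That share is lower than a threshold of 0.05 gives without any differences, so the count of 0 in this contrast says little. Between RD-weaned males and females 0 of 4 met either rule, against 0.00791% and 3.05% of 12636 genes. Between HCD-weaned and RD-weaned males 0 of 5 passed, against 0.00775% of 12910 genes, and 1 had an unadjusted p under 0.05, against 3.84%. Between HCD-weaned and RD-weaned females 0 of 6 met either rule, against 0.00685% and 5% of 14603 genes. The widest gap between HCD-weaned and RD-weaned males was that of Glp1r, -0.89 ± 0.44 (SE), with an interval from -1.76 to -0.02. With the RD-weaned sign turned it was -0.71 ± 0.44 (SE), and the interval, from -1.58 to 0.15, spanned 0. For Lepr the gap between RD-weaned males and females was 0.66 ± 0.45 (SE), with an interval from -0.23 to 1.55, and that between HCD-weaned and RD-weaned females 0.45 ± 0.48 (SE), from -0.49 to 1.39, or -0.16 ± 0.48 (SE) with the RD-weaned sign turned.

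The wider pathway was taken as 8 lists, which hold 146 symbols, 138 of them outside the set above. In HCD-weaned males 3 of 130 tested fell and 0 rose, where 0.163% of all genes passed. In HCD-weaned females 1 of 125 fell and 1 rose, where 1.52% of all genes passed. In RD-weaned males 0 of 113 passed, against 0.0851% of all genes. In RD-weaned females 2 of 125 fell and 0 rose, against 0.346%. With the RD-weaned sign turned, these 2 would be rises. Median log2 fold changes of the tested genes outside the set were -0.10, -0.01, -0.03 and -0.01.

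**Figure D4:**
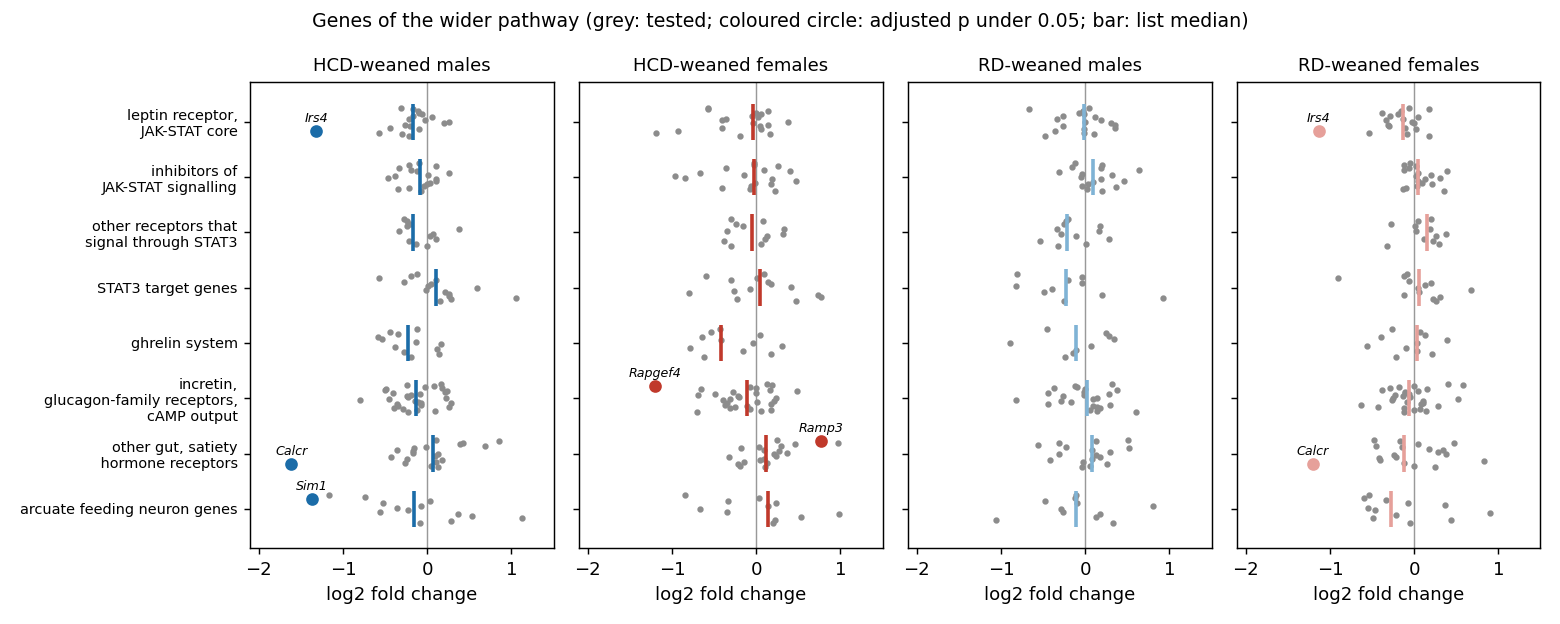
Log2 fold changes of the tested genes of 8 pathway lists (rows) in the 4 comparisons (panels); grey points did not pass, coloured circles have an adjusted p under 0.05 from the authors, and bars are list medians. The coloured circles are Irs4 and Calcr in 2 panels each, Sim1, Rapgef4 and Ramp3.

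In the leptin receptor and JAK-STAT core, 1 of 19 tested genes fell in HCD-weaned males, where 0.163% of all genes passed, and 1 of 19 in RD-weaned females, where 0.346% did. Both times it was Irs4, an adaptor gene of insulin signalling, at -1.32 ± 0.31 (SE; adjusted p = 0.0185) and -1.13 ± 0.29 (SE; adjusted p = 0.0344) per the authors' deposited tables. With the RD-weaned sign turned, Irs4 would rise in RD-weaned females. In HCD-weaned males the medians of paraventricular and arcuate markers were -1.19 and -0.09. In RD-weaned females those medians were -0.38 and -0.48, and that of cortex and hippocampus markers was 0.92. The part of these cells in the Irs4 values was not tested. The core list had 16, 11, 11 and 15 of 19 genes below 0, with medians of -0.17, -0.04, -0.01 and -0.14. In the other 2 comparisons 0 of 19 passed. The smallest p there belonged to Irs2, a relative of Irs4 (-1.19 ± 0.44, SE, HCD-weaned females), and to the adaptor gene Grb2 (-0.47 ± 0.25, SE, RD-weaned males), per the authors' deposited tables.

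Among inhibitors of JAK-STAT signalling 0 of 18, 18, 17 and 18 tested genes passed, with medians of -0.09, -0.03, 0.09 and 0.04. The smallest p belonged in turn to the phosphatase genes Ptpre (-0.46 ± 0.28, SE) and Ptprj (-0.96 ± 0.37) and to Socs2 (0.64 ± 0.43) and Cish (0.36 ± 0.25), relatives of Socs3, per the authors' deposited tables. Of 12 genes of other receptors that signal through STAT3, 0 passed in each comparison, with medians of -0.16, -0.05, -0.22 and 0.15. Here the smallest p belonged to Il11ra1 (0.38 ± 0.29, SE), Ifnar1 (-0.38 ± 0.28), Ifnar1 again (-0.54 ± 0.24) and Ifngr2 (0.38 ± 0.20), genes of interleukin 11 and interferon receptors, per the authors' deposited tables.

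STAT3 target genes did not pass in any comparison, with 15, 14, 10 and 13 tested and medians of 0.10, 0.05, -0.23 and 0.06. In HCD-weaned males Cebpb, a transcription factor gene, stood at 1.06 ± 0.28 (SE; adjusted p = 0.0947) per the authors' deposited table. The survival gene Bcl2l1 stood at 0.48 ± 0.24 (SE) in HCD-weaned females, and Serpina3n, known from reactive astrocytes, at -0.82 ± 0.37 and -0.91 ± 0.28 in RD-weaned males and females per the authors' deposited tables.

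The ghrelin system had 12, 11, 9 and 11 genes tested and 0 called, with medians of -0.23, -0.42, -0.10 and 0.03. The smallest p belonged in turn to the phospholipase gene Plcb4 (-0.58 ± 0.29, SE), to Gnaq, a G protein subunit gene (-0.78 ± 0.25; adjusted p = 0.0807), to Nucb2, the nesfatin precursor gene (-0.89 ± 0.42), and to Mrap2, an accessory protein gene of feeding receptors (-0.56 ± 0.27), per the authors' deposited tables. Among incretin and glucagon-family receptors and cAMP output 1 of 29 fell in HCD-weaned females, Rapgef4, which encodes the cAMP sensor EPAC2, at -1.20 ± 0.26 (SE; adjusted p = 0.00257) per the authors' deposited table; 1.52% of all genes passed there. In the other 3 comparisons 0 of 30, 24 and 29 passed. Glp1r had the smallest p in HCD-weaned males, Crtc2, a CREB coactivator gene, in RD-weaned males (-0.82 ± 0.35, SE) and Adcyap1r1, the PACAP receptor gene, in RD-weaned females (-0.64 ± 0.20) per the authors' deposited tables.

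Receptors of other gut and satiety hormones included Calcr, the calcitonin receptor gene, whose product also forms amylin receptors. Calcr fell, at -1.61 ± 0.33 (SE; adjusted p = 0.00191) in HCD-weaned males, the 1 called of 20 where 0.163% of all genes passed, and at -1.20 ± 0.28 (SE; adjusted p = 0.0128) in RD-weaned females, the 1 called of 19 where 0.346% passed, per the authors' deposited tables. With the RD-weaned sign turned, the Calcr value in RD-weaned females would be a rise. The lateral and ventromedial hypothalamic genes Pmch, Hcrt and Fezf1, described beside Glp1r, fell in HCD-weaned males. In RD-weaned females all 8 markers of cortex and hippocampus were positive (median 0.92), with 0 called. Ramp3, which encodes a partner of that receptor, rose by 0.77 ± 0.23 (SE; adjusted p = 0.0492) in HCD-weaned females, the 1 called of 20 where 1.52% of all genes passed, per the authors' deposited table. Ramp3 is also one of the 8 thalamus markers, whose medians were 0.30, 0.08, 0.41 and -0.60; all 8 were negative in RD-weaned females, where Gbx2 and Calb2 were called. Their part in these values was not tested. In RD-weaned males 0 of 17 receptor genes passed, and Ntsr2, a neurotensin receptor gene, had the smallest p (-0.56 ± 0.28, SE) per the authors' deposited table.

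Of the arcuate feeding neuron genes 1 of 14 fell in HCD-weaned males, where 0.163% of all genes passed; it was Sim1, a gene of paraventricular neurons. In the other comparisons 0 of 11, 11 and 12 passed. The smallest p belonged to Cpe, a prohormone-processing enzyme gene (0.53 ± 0.19, SE), to the satiety peptide gene Cartpt (-1.05 ± 0.42) and to Npy, a gene of hunger neurons (0.89 ± 0.28), per the authors' deposited tables. Medians of this feeding list were -0.16, 0.14, -0.11 and -0.28, with 9, 4, 7 and 9 of the tested genes negative. Arcuate nucleus markers, of which 7, 7, 6 and 7 were tested, had medians of -0.09, 0.03, -0.11 and -0.48, with 0 called. In RD-weaned females 6 of the 7 were negative and Npy was the 1 positive, as the sign is read here. The remaining marker, Pomc, has no p in RD-weaned females and was positive too, at 0.36 ± 0.23 (SE) per the authors' deposited table. There 5 of the 7 had an unadjusted p under 0.05, against 6.16% of all tested genes.

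**Figure D5:**
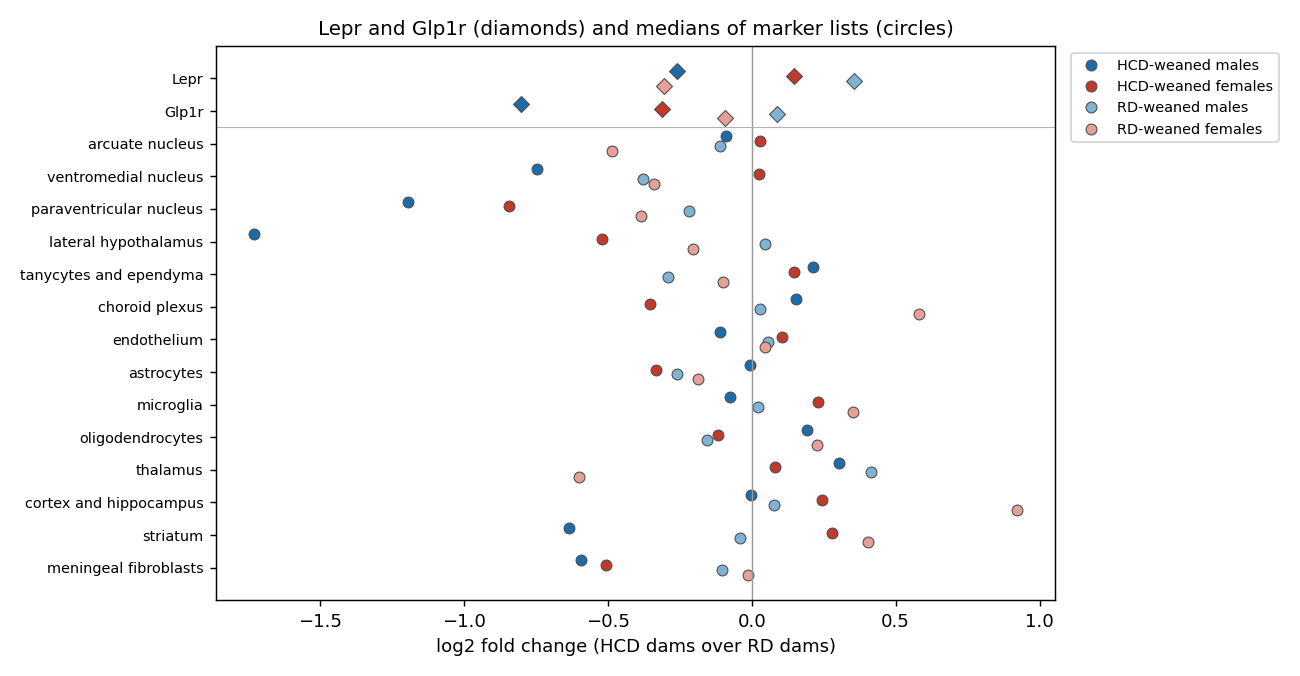
Log2 fold change of Lepr and Glp1r (diamonds) beside the median of each marker list (circles), coloured by comparison. In HCD-weaned males the paraventricular median of -1.19 lies on the same side of 0 as Glp1r. In RD-weaned females the choroid plexus median of 0.58 lies on the other side from Lepr, and the arcuate median of -0.48 on the same side. That arcuate median leaves out Pomc, which has no p there and was positive.

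Likeness to Lepr and Stat3 was measured as the Euclidean distance over the 4 log2 fold changes among 12604 genes. The genes nearest to Lepr were Chuk, a kinase gene of the NF-kB pathway, at 0.065, Fam65b at 0.067 and Cep57, a centrosomal protein gene, at 0.129. Nearest to Stat3 were the tyrosine kinase gene Fes at 0.047, Zadh2 at 0.057 and Zmat3 at 0.063. Each of these distances was smaller than every SE of the Lepr and Stat3 values, and none of those values passed. The ranking therefore does not show that these genes behave alike.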

How the data were processed

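The values come from 4 tables in which the authors compared groups. DESeq (no version) and mm10 appear in the submitters' processing notes; the aligner, counting tool and annotation were not stated in any source used. Per the file headers, the deposited values are a mean normalized count over libraries (a signal), a fold change and SE on the log2 scale, a statistic (a score equal to fold change over SE), and p-values with the authors' adjustment. Recomputed Benjamini-Hochberg values matched the deposited adjusted p. No gene's SE exceeded 0.326, 0.447, 0.454 and 0.296 on the log2 scale in the 4 deposited tables, so the fold changes of low genes appear shrunken toward 0. Another 8 files hold 48 library columns whose running numbers match no label and which were not used; the planned count test therefore gave way to the authors' tables, as the plan allowed, and depth per sample is not given. The files of RD-weaned males have 6 library columns for 7 labelled samples. The labels do not state separate litters or cultures, so p measures only spread among these samples.

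Calls needed an adjusted p under 0.05. Intervals are fold change ± 1.96 SE. Differences between comparisons used the root of summed squared SEs and the normal distribution, adjusted over genes that have an adjusted p on both sides. This step was tested on simulated data, which does not show that its p-values hold for these tables. Between HCD-weaned males and females 0.642% of genes had an unadjusted p under 0.05. That share is lower than a threshold of 0.05 gives in the absence of differences. The other contrasts gave 3.05% to 5%. Levels are per 1000000 of the summed means, length-scaled with exon lengths from GENCODE release M21 (GRCm38). Alternatives were another threshold, count filters, centring, scaling by the robust spread, removal of a length and GC trend, and turned signs. Python 3.11.15, pandas 2.3.3, numpy 2.4.6, scipy 1.17.1 and matplotlib 3.10.9 were used.

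Genes named are the 8 members, each pathway list's called genes or else that with the smallest p, and the 3 nearest to Lepr and Stat3; markers were named after their values were seen. The members and lists were chosen with earlier results of these data known.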

Additional observations from a re-analysis of the deposited data

How the results depend on the processing

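Of the genes tested under each alternative, 0 passed in all 7 run for each comparison and in the 3 or 4 for each difference. With a mean count of at least 100 only 3 of the 8 genes were tested, elsewhere 4 to 8, and a minimum of 10 left the same genes as the authors' own filter. Their smallest adjusted p over these alternatives was 0.492, 0.583, 0.977 and 0.969 in males and females weaned onto HCD and males and females weaned onto RD, and 0.552 for the differences, with the sign of the RD-weaned side turned. Thresholds, filters and division by the spread cannot move a fold change; centring on the median turned 0 of 26. With the trend on length and GC content removed, 4 of 26 changed sign: Lepr (0.0084) and Stat3 (0.072) in HCD-weaned males, Socs3 (-0.11) in HCD-weaned females and Stat3 (0.045) in RD-weaned males; the cause was not tested. The statistic followed transcript length across genes with Spearman rho of -0.545, -0.439, 0.082 and -0.220; genes are not independent. The number of all genes called, which sets the background, was 25, 229, 11 and 52 and ranged from 3 to 32, 56 to 450, 7 to 74 and 35 to 90. Turning the RD-weaned sign moved the number that differed between weaning diets from 1 to 186 in females and from 1 to 4 in males. Another normalization, another tool and leaving out replicates were not run, since they need mapped libraries. No paired analysis was possible because the library columns carry no sample or replicate number.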
